A study of Rattus norvegicus with 12 samples.

Results

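Complement is a cascade of blood proteins and of their regulators on cell surfaces, and 9 of its genes were followed here in transplanted rat kidneys: C1qa, C1qb, C1qc, C1s, C3, Cfb, Cfi, Cd55 and Cd59. A probe set, the group of oligonucleotides that measures a transcript on an array, was taken when the platform annotation gave it 1 of these symbols and no other. By this rule 7 of the 9 genes were found, of 14217 genes named in this way on the whole array, and they had 8 probe sets. C1qa, C1qb, C1qc, C1s, C3 and Cfi had 1 probe set each, and Cd55 had 2. The 4 probe sets that list Cfb also list C2, the gene next to it, so that Cfb was not analysed here. Cd59 is listed by the platform as Cd59b, of which Cd59 is a synonym in the GRCr8 gene table, and its 1 probe set is described beside the others.

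The arrays measured total RNA of renal cortex from 12 kidney grafts of male rats, 1 array for each graft. In 6 arrays the graft was MRP2-deficient (ABCC2-/-), and in 6 the graft was wild type. Both kinds of graft had been placed in wild-type recipients, so any cell that entered a graft from the blood came from a wild-type animal. Strain, age, time after transplantation and immunosuppression are not given in the sources used here. The deficiency removes MRP2, an export pump for organic anions in the apical membrane of proximal tubule cells, and the series states its subject as what this loss does to a renal graft. Signals are given on the linear scale of the deposited values, where each array had been divided by a constant, and they have no further unit. Probe sets differ in how strongly they bind, so their signals do not show which gene has more RNA.

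Complement is started through the classical pathway when C1q, built from the chains of C1qa, C1qb and C1qc, binds immune complexes or injured cells and turns on the proteases C1r and C1s. The pathways meet at C3, whose cleavage marks surfaces and releases an inflammatory fragment, and factor B, the product of Cfb, amplifies this step. Factor I inactivates cleaved C3, CD55 takes apart the enzymes that cleave it, and CD59 blocks the membrane attack complex. Most circulating complement comes from the liver. C1q is known as a product of macrophages and dendritic cells, and kidney tubule cells can make C3 locally, which has been studied in transplantation because donor kidneys bring this source with them.

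Abcc2, which encodes MRP2, separated the groups as labelled. Its signal averaged 0.141 ± 0.0594 in ABCC2-/- grafts and 0.899 ± 0.0746 in wild-type grafts (SD, n = 6 each), and the ranges of 0.0387 to 0.213 and 0.787 to 0.987 did not overlap. The difference, ABCC2-/- minus wild type on the log2 scale, was -2.69 with an adjusted p of 8.35e-06 by limma. All differences below run in this direction, and each comes with its standard error (SE) from a limma fit over 18625 probe sets that passed a filter on level. The p-values were adjusted over all of these by Benjamini-Hochberg, with a threshold of 0.05. Whether each graft had a donor of its own is not stated, and the p-values therefore reflect graft-to-graft spread only, which may be technical. The arrays also varied with their order in the series. The first component of variation within genotypes, 32.6% of it, separated the 3 arrays listed first in each genotype (deficient replicates 5, 9 and 11, wild-type replicates 1, 6 and 9) from the 3 listed last. The signal ratio of the 3′ to the 5′ probe set of Gapdh, a sign of RNA or labelling quality, lay between 1.28 and 1.36 in the 3 last-listed deficient arrays and between 1.64 and 1.93 in the other 9. The labels do not say what the order stands for, and values within the first-listed and last-listed arrays are printed where they differ.

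None of the complement genes of the set was found to differ between ABCC2-/- and wild-type grafts. Of the 7 tested probe sets that the rule gave, 0 passed the limma threshold and 0 had an unadjusted p under 0.05. Over all 18625 tested probe sets, 4 passed the threshold (0.0215%), all of them lower in ABCC2-/- grafts, and 1486 had an unadjusted p under 0.05 (7.98%). With 0.0215% of probe sets called, 7 probe sets would rarely hold a call, so the count of 0 says little and the intervals of the single genes say more. On the log2 scale the difference was positive for 5 of the 7 genes (C1qa, C1qb, C1qc, C1s and Cd55) and negative for C3 and Cfi. Their median was 0.11, with a range of -0.23 to 0.26. Over 10639 genes the median was -0.04, 41.4% were positive, and the 5th and 95th percentiles were -0.30 and 0.26.

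**Figure D1:**
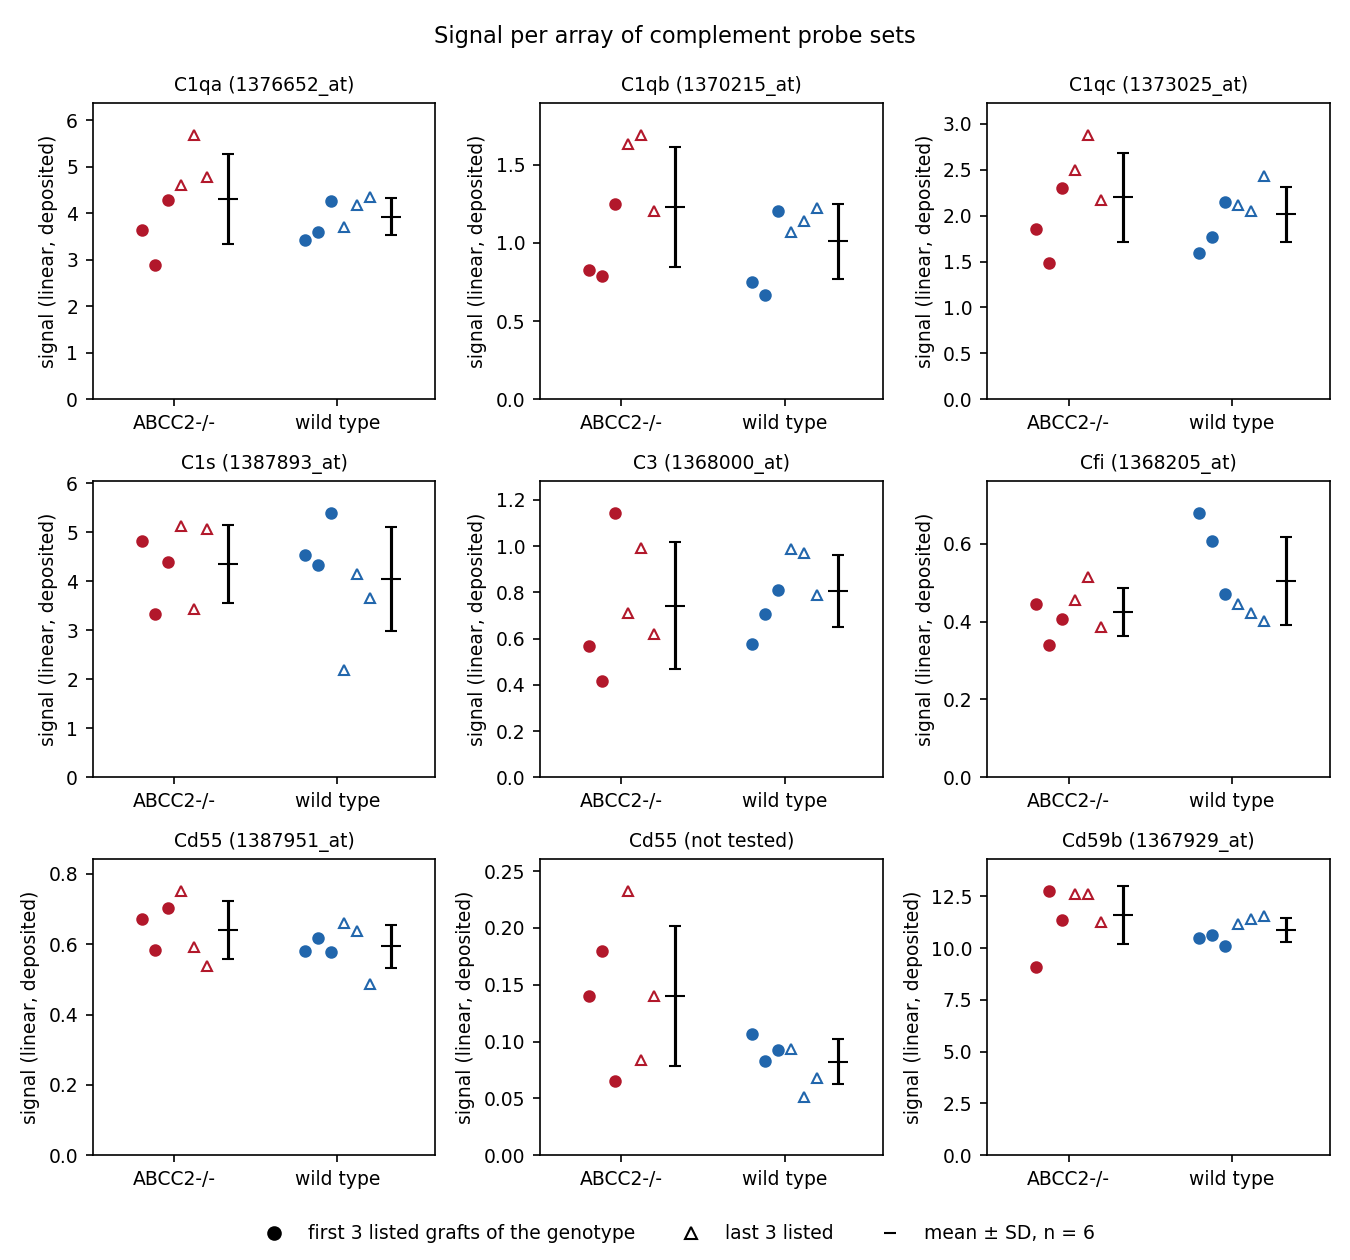
Deposited signal of each probe set on a linear axis that starts at 0, with ABCC2-/- grafts at the left and wild-type grafts at the right of each panel; each point is 1 array, a filled circle for the 3 listed first in its genotype and an open triangle for the 3 listed last, and bars are mean ± SD (n = 6). The genotypes overlap in every panel, and the C1qa signals of ABCC2-/- grafts run between 2.89 and 5.69, on both sides of the wild-type range.

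The C1q chains were measured well above the floor in every graft, and each had overlapping groups. The lowest, median and highest C1qa signals were 2.89, 4.45 and 5.69 in ABCC2-/- grafts, against 3.43, 3.95 and 4.36 in wild-type grafts. The 3 highest signals and the lowest one were all from ABCC2-/- grafts, which spread on both sides of the wild-type range. The C1qa difference was 0.11 on the log2 scale (SE 0.13, 95% interval -0.17 to 0.39), with an adjusted p of 0.770 by limma. For C1qb, which encodes the second chain, the signals were 0.791, 1.23 and 1.69 in ABCC2-/- grafts, against 0.669, 1.11 and 1.22 in wild-type grafts. Here 3 ABCC2-/- grafts lay above all wild-type grafts and 2 wild-type grafts lay below all ABCC2-/- grafts. The C1qb difference, the highest among the tested probe sets of the set, was 0.26 (SE 0.21, interval -0.17 to 0.70, adjusted p = 0.672 by limma), a fold of 1.2 whose interval runs between 0.887 and 1.63. C1qc, the last chain, had signals of 1.49, 2.24 and 2.88 in ABCC2-/- grafts, against 1.59, 2.08 and 2.43 in wild-type grafts. Again the extremes on both sides were ABCC2-/- grafts, 2 above and 1 below the wild-type range, and the difference was 0.11 (SE 0.15, interval -0.20 to 0.41, adjusted p = 0.793 by limma). The exact permutation test (two-sided, every way to assign the 12 arrays) gave p = 0.485 for C1qa, 0.284 for C1qb and 0.526 for C1qc. With 1 array left out the lowest differences of C1qa and C1qc were 0.02 each, without deficient replicate 10, and the highest 0.22 and 0.21, without deficient replicate 9. For C1qb they ran between 0.15, without wild-type replicate 6, and 0.38, without deficient replicate 9.

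The 3 ABCC2-/- grafts above the wild-type range of C1qa were all listed last. Among the last-listed arrays C1qa had 4.61, 5.69 and 4.78 in deficient replicates 3, 10 and 14, against 3.72, 4.19 and 4.36 in wild-type replicates 4, 7 and 8. In the first-listed arrays C1qa had 3.63, 2.89 and 4.29 in deficient replicates 5, 9 and 11, against 3.43, 3.59 and 4.27 in wild-type replicates 1, 6 and 9. The log2 differences were 0.29 in the last-listed arrays (adjusted p = 0.109 by limma) and -0.07 in the first-listed arrays (adjusted p = 0.874 by limma). With 3 arrays against 3 the exact permutation test cannot give a p below 0.1. For C1qb the differences were 0.39 last-listed and 0.14 first-listed, and for C1qc 0.19 and 0.02. The change in difference between the parts of the listing was itself tested over all probe sets, of which 2.54% passed. No gene of the set passed in that test, where the adjusted p was 0.310 for C1qa, 0.723 for C1qb and 0.744 for C1qc by limma. The last-listed ABCC2-/- arrays are also those with the low Gapdh ratio. With that ratio as a covariate the differences became -0.05 for C1qa, 0.03 for C1qb and -0.03 for C1qc, and the part of RNA quality in these values was not tested further.

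The signals of the 3 C1q chains ran in parallel across grafts. These pairs were chosen after the values had been seen, so their correlations are a description of these arrays and carry no p-value. With the mean of each genotype removed, Pearson's r over the 12 arrays was 0.862 for C1qa with C1qb, 0.931 for C1qa with C1qc and 0.924 for C1qb with C1qc. Spearman's rho was 0.804, 0.818 and 0.937 in the same order. Without the 2 arrays farthest from the median the values of r were 0.857, 0.831 and 0.941, and those of rho 0.685, 0.697 and 0.964. With the means of the first- and last-listed arrays removed as well, r was 0.758, 0.914 and 0.846, and rho was 0.664, 0.846 and 0.769. Within the first-listed arrays r was 0.831, 0.991 and 0.848, and within the last-listed arrays 0.529, 0.715 and 0.858. Along the chromosome, C1qb, C1qc and C1qa are consecutive protein-coding genes on chromosome 5 in the GRCr8 gene table.

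**Figure D2:**
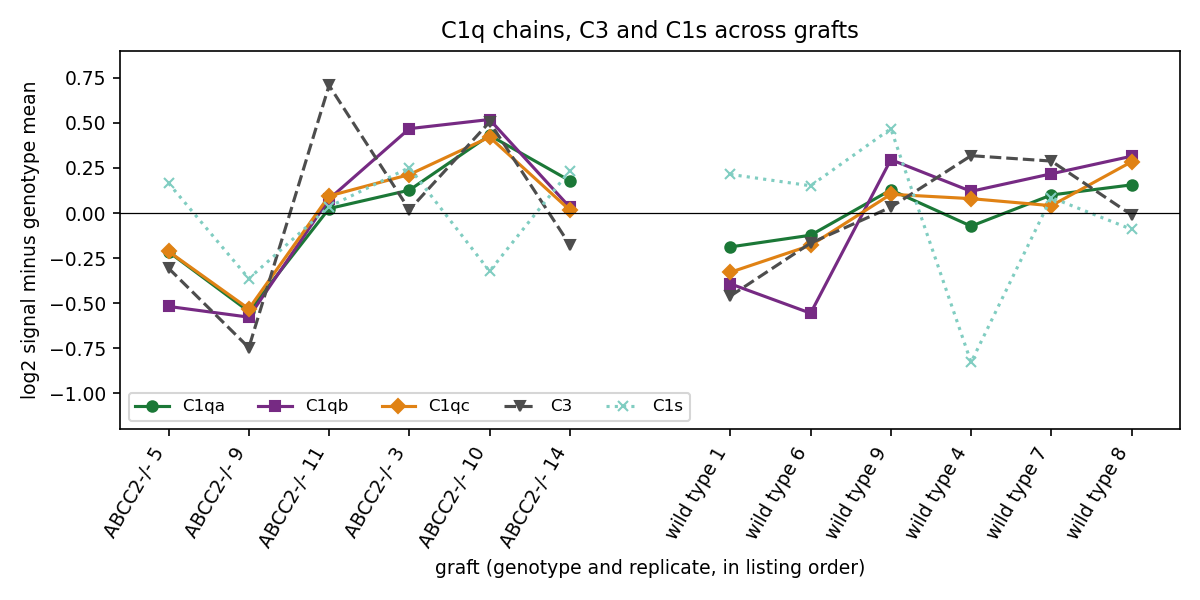
Log2 signal minus the genotype mean for the C1q chains, C3 and C1s in each graft, ABCC2-/- grafts at the left and wild-type grafts at the right in listing order; lines join the arrays of a gene for the eye. The 3 chains lie low together in deficient replicates 5 and 9 and wild-type replicates 1 and 6, while C1s takes its lowest value in wild-type replicate 4.

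Since the chains ran in parallel, the promoters of C1qa and C1qb are shown, with that of C3, whose signal is described further on. The RefSeq sequences cover 300 bases around the start of each gene, most of them upstream, in build GRCr8, on the strand of the gene. They lie at chr5:154419884-154420183 for C1qa, chr5:154407778-154408077 for C1qb and chr9:2201290-2201589 for C3, each on the minus strand. Capitals mark matches, on either strand, to 3 motifs. The first, GAGGAA, is the core bound by PU.1, a transcription factor of macrophages. TTGCNNAA is bound by C/EBP factors, which act in liver and myeloid cells. The last, ATAAAA, resembles the TATA box that helps to place transcription starts.
C1qa: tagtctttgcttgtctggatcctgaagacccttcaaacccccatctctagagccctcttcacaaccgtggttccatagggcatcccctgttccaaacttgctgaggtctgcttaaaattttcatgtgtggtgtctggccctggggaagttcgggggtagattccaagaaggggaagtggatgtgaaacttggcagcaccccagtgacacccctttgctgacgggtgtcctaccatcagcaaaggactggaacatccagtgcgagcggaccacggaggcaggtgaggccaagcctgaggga
C1qb: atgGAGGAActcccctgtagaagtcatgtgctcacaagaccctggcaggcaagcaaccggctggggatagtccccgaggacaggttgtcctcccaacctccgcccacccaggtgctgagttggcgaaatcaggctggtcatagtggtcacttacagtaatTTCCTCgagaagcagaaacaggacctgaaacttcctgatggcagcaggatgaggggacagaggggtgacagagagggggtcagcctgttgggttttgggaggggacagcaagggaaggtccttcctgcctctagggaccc
C3: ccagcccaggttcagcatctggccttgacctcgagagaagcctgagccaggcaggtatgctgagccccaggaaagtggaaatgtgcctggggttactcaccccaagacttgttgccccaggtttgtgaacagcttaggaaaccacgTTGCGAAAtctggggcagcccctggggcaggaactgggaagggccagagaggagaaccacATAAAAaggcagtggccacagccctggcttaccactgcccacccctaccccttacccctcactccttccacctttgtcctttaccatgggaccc
The C1qa window held none of these motifs. The C1qb window held GAGGAA at -247 and, on the opposite strand as TTCCTC, at -90 from the gene start. The C3 window held TTGCGAAA at -104 and ATAAAA at -44. None of these matches overlapped another. Of 33469 promoters of the same length 27.6% held GAGGAA, 10.6% TTGCNNAA and 20.5% ATAAAA, so such matches are common, and a match is only a description of the sequence. The windows of Cfi on chromosome 2 and Cd55 on chromosome 13 held none of the 3 motifs.

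C1q signals were set beside those of 15 genes listed for macrophages, with the chains themselves left out of that list. The list includes leukocyte genes such as Cd53 and Laptm5, and whether its RNA came from macrophages alone was not tested. None of the 15 passed the threshold (10 were positive and 5 negative, median 0.10 on the log2 scale), and their summed signal ranged between 51.6 and 70.4 in ABCC2-/- grafts and between 51.1 and 59.98 in wild-type grafts. Lyz2, the macrophage lysozyme, made up the largest part of these sums, which therefore mainly follow that 1 gene. It averaged 28.7 ± 4.28 in ABCC2-/- grafts and 25.9 ± 3.38 in wild-type grafts (SD, n = 6 each, adjusted p = 0.670 by limma). Mrc1, the mannose receptor, had the lowest p of the list, at 0.554 ± 0.104 in ABCC2-/- grafts and 0.426 ± 0.0710 in wild-type grafts (SD, n = 6 each; adjusted p = 0.612 by limma). Cd68 was measured above the floor in every graft, whereas Cd163 was below it on 11 of 12 arrays. Graft by graft, the mean of the C1q chains had r = 0.700 with the mean of the 15 genes (permutation p = 0.0235, adjusted 0.0587) and rho = 0.629 (permutation p = 0.0476, adjusted 0.166), which did not pass after adjustment over the 5 planned relations computed. Without the 2 arrays farthest from the median of the C1q mean, r was 0.457 (exact permutation p = 0.222). Leaving them out also narrows the C1q range, so how far r rests on them cannot be told. The value of r was 0.961 in the first-listed and 0.666 in the last-listed arrays. It was 0.843 with the means of both parts of the listing removed (exact permutation p = 0.00772, adjusted 0.0386). That setting was chosen after the data had been seen, so its p is a description and adds no support. In these tissue samples fewer cells of a type and less RNA per cell cannot be told apart.

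The genes most like the C1q mean across the 12 arrays were named by Pearson's r among 14106 tested probe sets with 1 symbol, genotype means removed. Fcer1g, a signalling chain of Fc receptors, came first with r = 0.960. It was followed by Cdadc1 with r = 0.924, the mitochondrial carrier Slc25a39 with 0.911, Bcan with 0.910 and Cd53, a tetraspanin of leukocytes, with 0.909. With the listing means removed as well, r was 0.948 for Fcer1g, 0.869 for Cdadc1, 0.789 for Slc25a39, 0.893 for Bcan and 0.791 for Cd53. These are the highest of many values and are a description of these arrays. Fcer1g and Cd53 also belong to the macrophage list above. The Fcer1g signal averaged 9.35 ± 2.01 in ABCC2-/- grafts and 8.56 ± 0.865 in wild-type grafts (SD, n = 6 each; adjusted p = 0.773 by limma).

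**Figure D3:**
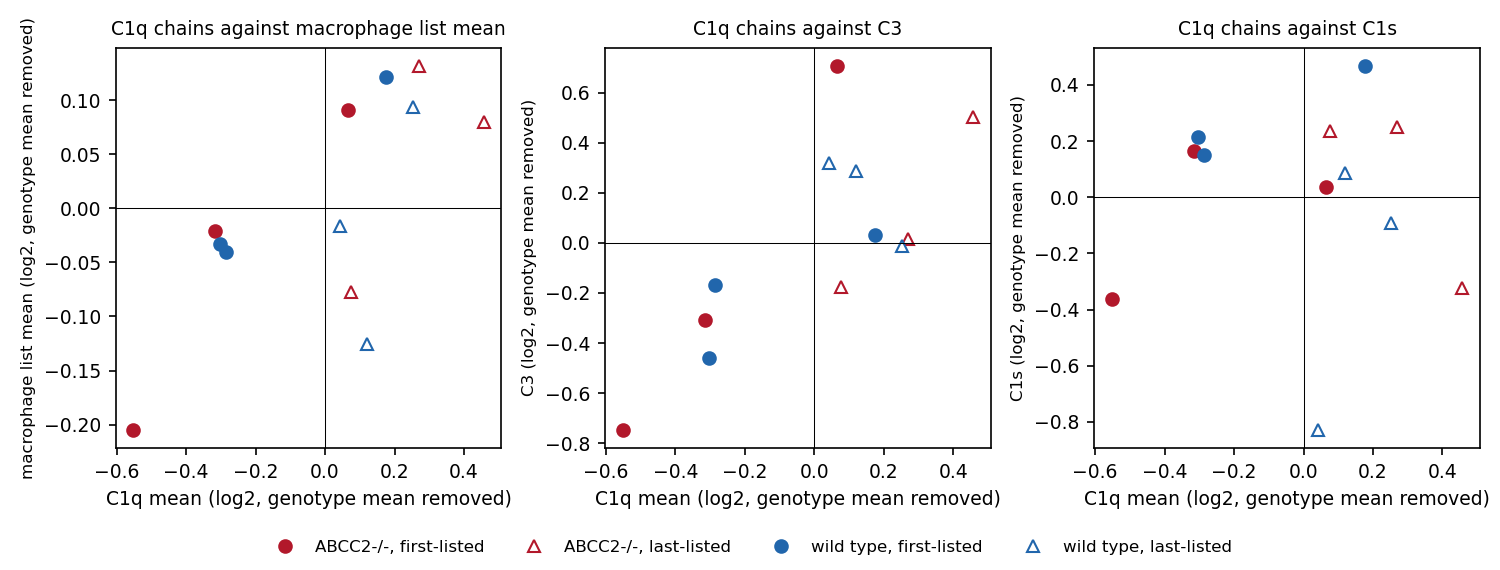
Log2 values with the genotype mean removed, with the C1q mean on the horizontal axis and the macrophage mean, C3 or C1s on the vertical axis, 1 point per graft, coloured by genotype, filled circles for first-listed and open triangles for last-listed arrays. The points give r = 0.700 for the macrophage mean, r = 0.752 for C3 and r = 0.01 for C1s, and deficient replicate 9 lies at the lower left of the macrophage and C3 panels.

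C1s, the protease that C1q sets to work, had no relation with the chains that passed the test. Its lowest, median and highest signals were 3.34, 4.61 and 5.12 in ABCC2-/- grafts, against 2.20, 4.24 and 5.40 in wild-type grafts. Wild-type grafts held both extremes, and the low value of wild-type replicate 4 stood below all others. The difference was 0.14 on the log2 scale (SE 0.18, interval -0.24 to 0.52, adjusted p = 0.781 by limma, exact permutation p = 0.571), and without that array it was -0.03. In the first-listed arrays it was -0.19, with signals of 3.34 to 4.82 in ABCC2-/- grafts and 4.34 to 5.40 in wild-type grafts. In the last-listed arrays it was 0.47, with 3.44 to 5.12 in ABCC2-/- grafts and 2.20 to 4.14 in wild-type grafts. The change of 0.66 between them had an adjusted p of 0.245 by limma. The relation of C1s with the C1q mean had r = 0.01 (permutation p = 0.963) and rho = 0.168 (permutation p = 0.617). It was r = 0.735 in the first-listed arrays (exact permutation p = 0.278) and r = -0.15 in the last-listed arrays (exact permutation p = 0.722). C1r, the protease that activates C1s and the gene beside it, averaged 4.29 ± 0.775 in ABCC2-/- grafts and 4.07 ± 0.460 in wild-type grafts (SD, n = 6 each), a difference of 0.06 (SE 0.12).

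C3, at which the pathways join, had signals of 0.418, 0.664 and 1.14 (lowest, median and highest) in ABCC2-/- grafts, against 0.576, 0.799 and 0.988 in wild-type grafts. The wild-type range lay inside that of the ABCC2-/- grafts, with 2 ABCC2-/- grafts above it and 2 below. The difference was -0.18 on the log2 scale (SE 0.21, interval -0.63 to 0.27), with an adjusted p of 0.766 by limma and an exact permutation p of 0.504. The widest spread was among the first-listed ABCC2-/- grafts, where deficient replicate 11 had 1.14 and deficient replicate 9 had 0.418. The difference was -0.32 without deficient replicate 11 and -0.03 without deficient replicate 9. C3 and the C1q mean had r = 0.752 (permutation p = 0.0167, adjusted 0.0587) and rho = 0.622 (permutation p = 0.0662, adjusted 0.166), which did not pass after adjustment. Without the 2 arrays farthest from the median of the C1q mean, r was 0.463 (exact permutation p = 0.187). Here too the C1q range is narrower without them, so how far r rests on them cannot be told. The value of r was 0.883 in the first-listed and 0.538 in the last-listed arrays. It was 0.811 with the means of both removed (exact permutation p = 0.0224, adjusted 0.0559), a setting chosen after the data had been seen.

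The genes most like C3 by the same measure were Epas1, which encodes the hypoxia-inducible factor HIF-2alpha, with r = 0.90, and RT1-Da, a class II histocompatibility gene of the rat, with 0.890. Slpi, an inhibitor of leukocyte proteases, had r = 0.873, Casq2 0.868 and Laptm5, a lysosomal protein of blood cells, 0.857. With the listing means removed as well these values lay between 0.829 and 0.906. Laptm5 also belongs to the macrophage list, there by another probe set. The liver is the main source of circulating C3 protein, which RNA signals of a graft cannot show. Of 10 hepatocyte genes, 8 were under the level filter. The summed signal of the other 2, Apob and Ttr, ranged between 0.169 and 0.513 in ABCC2-/- grafts and between 0.420 and 0.571 in wild-type grafts. The log2 difference was -1.28 for Apob (SE 0.36, adjusted p = 0.606 by limma), with 2 ABCC2-/- arrays under the floor, and 0.08 for Ttr (SE 0.38, adjusted p = 0.945 by limma).

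Among the regulators, Cfi, which encodes factor I, had the most negative difference of the set. Its signals were 0.339, 0.426 and 0.515 in ABCC2-/- grafts, against 0.402, 0.459 and 0.680 in wild-type grafts, with 2 ABCC2-/- grafts below and 2 wild-type grafts above the range of the other genotype. The difference was -0.23 on the log2 scale (SE 0.15, interval -0.56 to 0.09, adjusted p = 0.639 by limma, exact permutation p = 0.165). In the first-listed arrays Cfi had 0.445, 0.339 and 0.406 in deficient replicates 5, 9 and 11, against 0.680, 0.606 and 0.472 in wild-type replicates 1, 6 and 9. In the last-listed arrays it had 0.456, 0.515 and 0.387 in deficient replicates 3, 10 and 14, against 0.445, 0.424 and 0.402 in wild-type replicates 4, 7 and 8. The log2 differences were -0.56 and 0.09 (adjusted p = 0.311 and 0.820 by limma), and the change of 0.64 between them had an adjusted p of 0.20 by limma, against 2.54% of all probe sets that passed. Cfi and C3, the protease and its substrate, had r = -0.03 over the 12 arrays (permutation p = 0.927) and rho = 0.01 (permutation p = 0.991). It was r = 0.02 in the first-listed and r = 0.934 in the last-listed arrays (exact permutation p = 0.972 and 0.0833).

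Cd55, which encodes decay-accelerating factor, was measured by 2 probe sets. The tested one had signals of 0.538, 0.632 and 0.752 in ABCC2-/- grafts, against 0.488, 0.60 and 0.662 in wild-type grafts. The highest 3 were ABCC2-/- grafts and the lowest was a wild-type graft, and the difference was 0.10 on the log2 scale (SE 0.12, interval -0.14 to 0.35, adjusted p = 0.757 by limma, exact permutation p = 0.318). The other probe set was under the level filter and not tested in the fit. Its signals were 0.0650, 0.140 and 0.233 in ABCC2-/- grafts, against 0.0514, 0.0876 and 0.107 in wild-type grafts. Of these, 1 ABCC2-/- and 2 wild-type values lay under the floor of 0.0694, to which low signals were raised before log2 was taken. The difference of these values was 0.62 (exact permutation p = 0.0693), and both Cd55 probe sets had a positive difference.

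Cd59b, the gene of the inhibitor that acts on the membrane attack complex, had signals of 9.08, 11.98 and 12.8 in ABCC2-/- grafts, against 10.1, 10.9 and 11.5 in wild-type grafts. The lowest signal and the 3 highest were from ABCC2-/- grafts. The difference was 0.09 on the log2 scale (SE 0.09, interval -0.10 to 0.27, adjusted p = 0.734 by limma, exact permutation p = 0.344), and it was 0.08 in the first-listed and 0.09 in the last-listed arrays. Over all 12 arrays its interval excludes a fold above 1.21 and one below 0.933. Without deficient replicate 5, the lowest graft, the difference was 0.15 on the log2 scale (SE 0.075), so the upper limit rests partly on that array. The 2 membrane regulators had r = -0.12 with each other (permutation p = 0.783) and rho = -0.01 (permutation p = 0.977), with r = -0.50 in the first-listed and 0.35 in the last-listed arrays.

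The other genes of the system gave the same count. Of 46 listed, 34 had a probe set of their own and 21 were tested, of which 0 passed the limma threshold and 2 had an unadjusted p under 0.05, against 7.98% of all probe sets. The differences were positive for 13 and negative for 8, with a median of 0.06 on the log2 scale. By role the medians were 0.14 for the 6 tested genes of the classical and lectin pathways (5 positive, 1 negative), -0.01 for 5 genes of the alternative and terminal pathways (2 positive, 3 negative), 0.06 for 5 regulators (4 positive, 1 negative) and -0.06 for 5 receptors (2 positive, 3 negative). The 13 genes under the level filter included Mbl2, Cfd, C6, C8a, Cd46, Cr2 and Itgam, and C4bpa was below the floor on all 12 arrays.

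**Figure D4:**
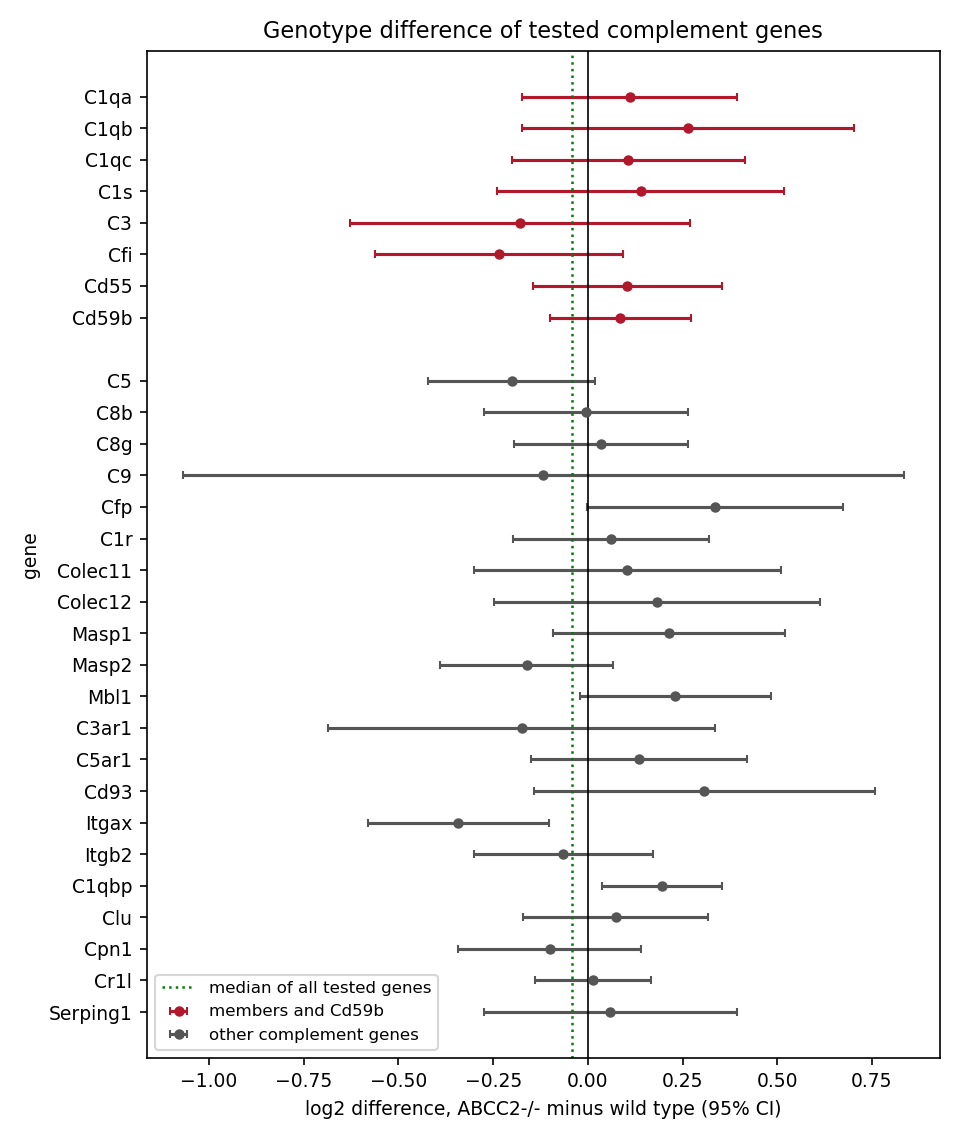
Log2 difference of ABCC2-/- minus wild-type grafts with its 95% interval (limma, 6 arrays per genotype) for the genes of the set with Cd59b, in red at the top, and for the 21 other tested complement genes, in grey; the dotted line is the median over all tested genes, -0.04. Every interval of the set includes 0, and those of Itgax (-0.34) and C1qbp (0.20) do not, before any adjustment for the number of probe sets tested.

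C1qbp, whose product is a mitochondrial protein that can bind the heads of C1q, had the lowest p among the positive ones. It averaged 11.1 ± 0.848 in ABCC2-/- grafts and 9.65 ± 0.567 in wild-type grafts (SD, n = 6 each), a log2 difference of 0.20 (SE 0.07) with an adjusted p of 0.606 by limma. In the last-listed arrays alone its difference was 0.34, with an adjusted p of 0.0334 by limma, and it passed in no other alternative. In those arrays 6.39% of all probe sets passed, so that 1 of 21 is close to that share. Cfp, which encodes properdin, the stabiliser of the alternative pathway enzyme, averaged 0.457 ± 0.0833 in ABCC2-/- grafts and 0.362 ± 0.0653 in wild-type grafts (SD, n = 6 each; adjusted p = 0.6245 by limma). Mbl1, a mannose-binding lectin that starts the lectin pathway, averaged 1.70 ± 0.236 in ABCC2-/- grafts and 1.45 ± 0.229 in wild-type grafts (SD, n = 6 each; adjusted p = 0.628 by limma).

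Among the negative ones, Itgax, the alpha chain of complement receptor 4 and a dendritic cell marker, averaged 0.848 ± 0.105 in ABCC2-/- grafts and 1.07 ± 0.122 in wild-type grafts (SD, n = 6 each). Its log2 difference was -0.34 (SE 0.11, adjusted p = 0.606 by limma), and its sign is opposite to that of the C1q chains. C5, which starts the terminal pathway, averaged 2.80 ± 0.252 in ABCC2-/- grafts and 3.24 ± 0.463 in wild-type grafts (SD, n = 6 each; adjusted p = 0.628 by limma). Masp2, a protease of the lectin pathway, had 0.750 ± 0.0875 in ABCC2-/- grafts and 0.837 ± 0.0795 in wild-type grafts (SD, n = 6 each; adjusted p = 0.640 by limma). Of the inhibitors, Cr1l, the rodent regulator related to complement receptor 1, averaged 7.84 ± 0.314 in ABCC2-/- grafts and 7.78 ± 0.571 in wild-type grafts, and Serping1, the C1 inhibitor, 6.73 ± 1.38 in ABCC2-/- grafts and 6.51 ± 1.5 in wild-type grafts (SD, n = 6 each).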

How the data were processed

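Biotin-labelled total RNA of renal cortex was hybridised to Affymetrix 3′ arrays, 1 per graft, per the labels' protocols. The authors deposited linear probe set intensities. MAS5 and GCOS, which turn probes into a signal, are named without versions in the submitters' processing notes. Each array of the deposited intensity table behaved as a signal divided by a constant, between 103.8 and 197.1, of unstated origin, and 3.56% of the values were at a minimum of 0.01.

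From these, 57 control probe sets were left out, signals under 0.0694, the pooled 20th percentile, were set to that floor, and all were converted to log2. A filter kept 18625 probe sets whose mean log2 value reached -2.53, the 40th percentile. They were fitted with limma 3.58.1 in R 4.3.3 (lmFit, eBayes with a mean-variance trend), graft genotype being the sole factor, with Benjamini-Hochberg adjustment. The floor understates differences of dim probe sets. Single values were compared by exact two-sided permutation over all assignments of 6 and 6 arrays, which cannot give a p below 0.00216, and relations between genes by 100000 permutations within genotype, or all of them where fewer exist. The precision is limited by the number of arrays. The fit was tested on simulated data. Names came from the platform annotation (20826 probe sets with 1 symbol, 436 with several, 9780 with none).

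The genes, lists and tests were chosen with earlier results of these data known. Named were all probe sets of the set, Abcc2, and the other complement genes of the lowest p (3 in each direction) and highest mean (3). From the cell type lists described, genes of the highest mean and lowest p were named, and also the 5 genes most like C1q and C3. C1r, Cd68, Cd163, the named genes under the filter and the C1qbp value in the last-listed arrays were added after values were seen. The parts of the listing, quantile normalization for the relations and the 3 pairs of C1q chains were chosen after seeing the data. Relation p-values were adjusted over the 5 planned pairs computed. Of 6 planned relations that of C3 with Cfb could not be computed. Alternatives changed the floor, filter, normalization, variance model, array weights, listing block and Gapdh covariate, or left out 1 array.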

Additional observations from a re-analysis of the deposited data

Results flagged for a closer look

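Cd59b in deficient replicate 5, at a log2 signal of 3.18 (9.08 on the linear scale), stood below the other 5 ABCC2-/- grafts, whose linear signals lay between 11.2 and 12.8. Its gap to the nearest graft was 0.626 of the range of the group, just above Dixon's critical value for 6 arrays. There were 24 groups checked in this way, and chance marks about 1 in 20 groups.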

How the results depend on the processing

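Over all probe sets, the 4 calls became 0 with values below 1 set to 1, 2 with the filter at the 60th percentile, 112 with the listing as a block and 1190 in the last-listed arrays alone, and 3 to 5 with 1 array left out. The cause was not tested. The complement genes of the set had 0 calls in each of these settings, and in each fit with 1 array left out. Of the other complement genes 1, C1qbp, was called in the last-listed arrays alone, and 0 in the fits with 1 array left out. Of 197 differences of the set under 25 alternatives 190 kept their direction and 7 reversed: C3 to 0.032 with values below 1 set to 1, C1qa to -0.048 and C1qc to -0.027 with the Gapdh covariate, C1qa to -0.074 and C1s to -0.19 in the first-listed arrays, Cfi to 0.087 in the last-listed arrays, and C1s to -0.026 without wild-type replicate 4 (range -0.026 to 0.23 over the arrays left out). None of these reversed differences had passed the threshold. With 1 array left out, Cfi ran between -0.29 (without wild-type replicate 8) and -0.14 (without wild-type replicate 1), Cd55 between 0.049 (without wild-type replicate 8) and 0.15 (without deficient replicate 14), and Cd59b between 0.056 (without deficient replicate 9) and 0.15 (without deficient replicate 5). Over the alternatives and left-out arrays the adjusted p of the set lay between 0.109 and 1.00. With values below 1 set to 1, Cfi and Cd55 kept no signal above the floor and had no value.

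Of the relations, C1q with the macrophage mean passed the adjusted threshold by r with the listing means removed (r = 0.84) and with quantile normalization (0.78). Its rho passed in the former (0.888, exact permutation p = 0.00617, adjusted 0.0309) and not in the latter (0.713, permutation p = 0.0121, adjusted 0.0607). C1q with C3 passed by r with quantile normalization (0.76), where rho was 0.594 (permutation p = 0.0739, adjusted 0.185). These settings were chosen after the data had been seen. Both relations also fell under the threshold, at the unchanged r of 0.70 and 0.75, when p was adjusted together with the chain pairs. Those pairs were chosen after the values were seen, and their low p-values lower the adjusted p of the other relations. That adjustment therefore adds no support. C1qa with C1qb had 0.83 first-listed and 0.53 last-listed, C1qa with C1qc 0.99 and 0.72, and C1qb with C1qc 0.85 and 0.86. Of those without a call in any setting, C1q with C1s turned to -0.26 without the 2 farthest arrays and -0.15 last-listed, C3 with Cfi to 0.023 first-listed, 0.93 last-listed and 0.25 with the listing means removed, and Cd59b with Cd55 to 0.12 without the 2 farthest arrays and 0.35 last-listed. No paired analysis was possible because the labels give no pairing of grafts between the genotypes.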

Other observations

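Of 7 genes listed for neutrophils and measured, 2 were tested, S100a9 and Lcn2, and neither passed the threshold. The summed signal of these 2 ranged between 0.456 and 2.14 in ABCC2-/- grafts and between 0.422 and 0.924 in wild-type grafts. Whether their RNA came from neutrophils alone was not tested. S100a9, a calcium-binding protein of neutrophils, had up to 1.80 in ABCC2-/- grafts and up to 0.505 in wild-type grafts, with medians of 0.512 and 0.443. All 4 tested genes listed for red blood cells had negative log2 differences, with a median of -0.30, and none passed the threshold. Over 10639 genes, 41.4% had positive differences. The difference was -0.30 for Hbb (SE 0.30), -0.30 for Hba-a3 (SE 0.27) and -0.41 for Slc4a1 (SE 0.12, adjusted p = 0.606 by limma). Whether the RNA of these genes came from red blood cells alone was not tested. Their summed signal ranged between 11.5 and 47.2 in ABCC2-/- grafts and between 20.9 and 54.6 in wild-type grafts.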
